A study of Rattus norvegicus with 9 samples.

Results

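Lysosomal enzymes, lysosomal membrane proteins and subunits of the proton pump were followed in microglia sorted from the retinas of diabetic and control rats. The members were a fixed list of 45 gene symbols looked up in the table of counts per gene. Of these, 44 had a row among the 28343 genes of the table, and all 44 passed the filter on low counts. Ctso was not analysed here. Dark Agouti rats, an inbred strain, gave 5 control libraries, which the labels number 1, 3, 4, 5 and 6, and 4 diabetic ones, numbered 1, 2, 4 and 5. At 8 to 10 weeks of age the rats were fasted for 12 hours and given either streptozotocin at 55 mg/kg, which destroys pancreatic beta cells, or citrate buffer. Diabetic rats whose blood glucose exceeded 30 mmol/l were given 2 units of Protaphane insulin, and retinas were taken after 4 weeks. Papain-digested whole retinas were labelled for CD11b, a surface protein of microglia and also of other myeloid cells, and the labelled cells were sorted. Nextera XT libraries were made from their RNA after SmartSeq preamplification. The labels do not say which rat gave which library, so p-values measure the spread between these libraries. In bulk RNA of sorted cells, fewer cells of a type and less RNA per cell cannot be told apart.

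Lysosomes degrade proteins, glycans and lipids taken up by phagocytosis or delivered by autophagy. Their soluble hydrolases work at the acidic pH that the vacuolar proton pump maintains, and the transcription factor TFEB switches on many of their genes when it enters the nucleus. Microglia are the phagocytes of the retina and carry an abundant lysosomal system.

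No member passed an adjusted p of 0.05 in the edgeR quasi-likelihood test over all genes, where 0.0681% of 11748 tested genes passed. With DESeq2 3 of 44 members passed (Ctsd, Ctsk and Tpp1), where 4.95% of all genes passed, and with limma-voom 0, where 0.034% of all genes passed. At an unadjusted p below 0.05, 11 of 44 members were lower in the diabetic libraries (25.0%, against 10.0% of all tested genes) and 1, Tfeb, was higher (all genes 8.94%). The other 32 did not reach that p. In 5 members (11.4%) every diabetic library lay below every control library, against 4.16% of all genes, and these were Ctsk, Ctsd, Tpp1, Lipa and Manba. Tfeb alone lay above every control library in every diabetic library, a separation that 4.27% of all genes showed. The median log2 fold change of the members was -0.09 and that of all tested genes was 0.0017.

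The members are read against genes of like abundance as well, since 43 of the 44 had a mean of at least 50 CPM (counts relative to the library total, scaled by the TMM method of edgeR). Among all 3681 genes at that level, a line drawn after the values were seen, 22.3% were lower at an unadjusted p below 0.05 and 4.65% were higher. Of the 43 members at that level, 23.3% were lower and 2.33% were higher. Diabetic libraries lay below all controls in 10.2% of these genes and in 9.3% of the members. Their median log2 fold change was -0.12, and that of the 43 members was -0.08. The members' shares therefore lay near those of other abundant genes. Counts by role below are read against the same shares.

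The scaling between libraries changed the split between lower and higher members. With TMM factors, 11 members were lower and 1 was higher at an unadjusted p below 0.05. The split was 3 lower and 3 higher with upper-quartile factors, beside 5.58% and 12.9% of all genes. It was 2 lower and 4 higher with library totals alone, beside 3.64% and 13.8% of all genes. The median of all tested genes moved to 0.08 and 0.12 on the log2 scale under these scalings. Relative to the median of all genes, the members' median was -0.0922 with TMM, -0.0899 with upper-quartile factors and -0.0935 with library totals alone. A change of factors shifts all genes by about the same amount, so these near-equal values are no separate evidence of a lower level. Among genes of at least 50 CPM the median was -0.12 with TMM, below the -0.08 of the members at that level. Leaving out 1 library also moved the count of 11 lower members. It was 6 without diabetic 2 or without diabetic 5, and 7 without control 3 or without diabetic 1. By edgeR, 1772, 2305, 2257 and 1793 of all genes reached that unadjusted p in these fits, in either direction. The fit of all libraries gave 2226. The count of 5 members below all controls was 8 without control 5 and 9 without diabetic 4. With fewer libraries such separation is easier for any gene, and the share of all genes in these settings was not counted.

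**Figure D1:**
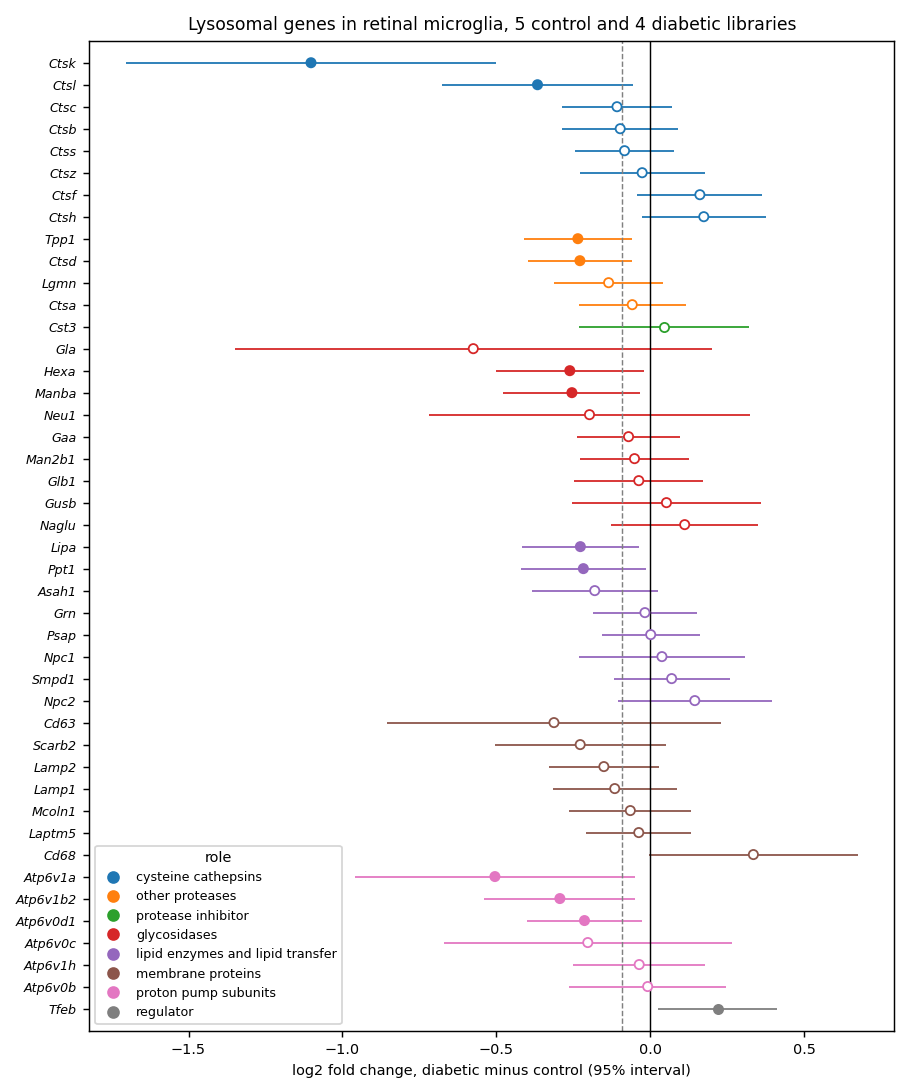
Log2 fold change of each of the 44 tested members (points, diabetic minus control) with its 95% interval (bars), coloured and grouped by role. Filled points have an unadjusted p below 0.05 and the dashed line is the members' median of -0.09. Of the 12 filled points, 11 lie left of 0, with Ctsk farthest out at -1.10, and Tfeb lies to the right at 0.22.

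Total counts ran from 6228756 in diabetic 4 to 11332823 in control 3. Summed microglia markers were at 30567 to 35574 CPM in control and 31439 to 34013 CPM in diabetic libraries, with Cx3cr1, P2ry12 and Tmem119 present in all and Siglech at 0 counts in all. By unadjusted p below 0.05 in the edgeR test, 2 of 14 tested microglia markers were lower and 1 was higher. Csf1r (log2 fold change -0.15) and Itgam (-0.24) were lower, and C1qc (0.35) was higher. Markers of border macrophages, which line vessels and membranes and also carry CD11b, summed to 354 to 731 CPM in control and 619.8 to 1393 CPM in diabetic libraries. Of 7 tested border markers 5 were higher at an unadjusted p below 0.05, and the eighth, Cd209a, was at 0. The 8 listed markers of monocytes and neutrophils found in the table summed to 1556 to 2168 CPM and 1468 to 2354 CPM, with 4 of 6 tested markers higher at an unadjusted p below 0.05 and Ccr2 at 0 counts in all libraries. Photoreceptor markers summed to 228 to 1249.9 CPM and 359.7 to 1771 CPM, with none of 9 at an unadjusted p below 0.05. Inner retinal neuron markers summed to 64.8 to 146 CPM in control and 91.9 to 282 CPM in diabetic libraries, and by unadjusted p 5 of 9 tested were higher and 1 was lower. Among them Pcp2, a bipolar cell gene, had a log2 fold change of 1.61 (adjusted p 0.0608 by edgeR) and lay above all controls in every diabetic library. Vascular markers summed to 41.1 to 169 CPM and 38.7 to 72.5 CPM, with 2 of 7 lower at an unadjusted p below 0.05. Muller glia markers summed to 2302 to 2504 CPM and 1949 to 2139 CPM, with 2 of 7, Glul and Slc1a3, lower at an unadjusted p below 0.05. Most of the sum was Glul (control mean 1213, diabetic mean 1081 CPM) and Slc1a3 (888 and 693 CPM). Rlbp1, Aqp4, Vim, Dkk3 and Car14 did not reach that p. Their log2 fold changes were -0.28, -0.19, 0.12, -0.02 and 0.21, so the lower sum was not a drop shared by all these markers. Immediate-early and heat-shock genes that respond to cell isolation summed to 3987 to 30688 CPM in control and 12086 to 18388 CPM in diabetic libraries, with the 2 highest sums in control 4 and control 6. The part of these cells and responses in the lysosomal values was not tested, except where a value below leaves out control 4 and control 6 or takes the isolation genes as a covariate.

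Tfeb, the regulator among the members, was measured at 67.0, 65.9, 64.0, 59.9 and 62.3 CPM in controls 1, 3, 4, 5 and 6. In diabetic libraries 1, 2, 4 and 5 it was at 71.0, 74.9, 71.3 and 80.1 CPM. Every diabetic library lay above every control, with the highest value in diabetic 5 and the lowest in control 5. In Tfeb the log2 fold change was 0.22 (SE 0.10, 95% interval 0.03 to 0.41), with an adjusted p of 0.207 in the edgeR test. It was above 0 in all 19 alternative analyses that could be run for it, from 0.18 to 0.33. On the build Rnor_6.0, reference transcripts of Tfeb span chr9:15207822-15214596 on the minus strand.

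Promoter letters bound by TFEB and related factors were looked up in the members' start regions, because the members are known as a group that TFEB can induce. RefSeq start regions (build GRCr8, 250 bases before to 50 after the start) were matched for 38 of the 45 members. The 7 without a match were Ctsb, Hexa, Asah1, Ppt1, Psap, Atp6v1b2 and Atp6v1h. The following stretches belong to members that were lower at an unadjusted p (Ctsd, Atp6v0d1, Tpp1 and Atp6v1a) and to Lamp1, the textbook lysosomal membrane protein. Each runs 5′ to 3′, with capitals marking TCACGTGA, TCATGTGA or its reverse complement TCACATGA.
Ctsd: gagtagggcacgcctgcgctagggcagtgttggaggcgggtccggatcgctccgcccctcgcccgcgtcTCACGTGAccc
Atp6v0d1: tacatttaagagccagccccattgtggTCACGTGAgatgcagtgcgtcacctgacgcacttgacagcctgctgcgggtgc
Tpp1: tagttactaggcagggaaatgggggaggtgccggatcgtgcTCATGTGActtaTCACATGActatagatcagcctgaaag
Lamp1: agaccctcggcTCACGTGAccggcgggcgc
Atp6v1a: ggggcttgaggTCACATGActagctagggc
The Ctsd stretch is chr1:206968822-206968901 on the minus strand, with its capitals 11 to 4 bases before the start. The Atp6v0d1 stretch is chr19:50357249-50357328 (minus), Tpp1 is chr1:169515940-169516019 (minus), Lamp1 is chr16:83075111-83075140 (minus) and Atp6v1a is chr11:70067468-70067497 (plus). The first 3 end at the last base before the start.

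Searched on both strands, TCACGTGA was present in 4 of 38 members (10.5%: Ctsd, Mcoln1, Lamp1 and Atp6v0d1), in 1.79% of 7925 tested genes with a start region and in 0.777% of all 33469 regions. The related TCATGTGA was present in 6 members (15.8%: Tpp1, Ctss, Cd63, Atp6v0c, Grn and Atp6v1a), in 0.959% of tested genes and in 1.16% of all regions. The core CACGTG, which lies inside TCACGTGA, was in 8 members (21.1%) and in 9.56% of tested genes. TCACGTGA with G before it and C after it was in 0 of the 38 members and in 0.58% of tested genes. The letters were chosen with the matches in view. A match describes the letters of this window and is not a measured binding site. Of 9 matched members at an unadjusted p below 0.05, 2 held TCACGTGA (Ctsd and Atp6v0d1) and 2 held TCATGTGA (Tpp1 and Atp6v1a).

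The proton pump subunits were all on the lower side in diabetic libraries under TMM scaling, with a log2 fold change below 0 in 6 of 6, but in 4 of 6 under upper-quartile factors or library totals alone. Under TMM, 3 of the 6 were lower at an unadjusted p below 0.05, beside 10.0% of all genes and 22.3% of genes of at least 50 CPM, and the median of the 6 was -0.21. The pump has a cytosolic part that splits ATP, to which Atp6v1a and Atp6v1b2 contribute, and a membrane part that carries protons, to which Atp6v0c, Atp6v0b and Atp6v0d1 belong.

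Atp6v0d1, a subunit that joins the membrane part to the central stalk, was at 407, 425, 397, 377 and 439 CPM in the controls. In the diabetic libraries it was at 362, 329.6, 381 and 338 CPM. Diabetic 4 lay above control 5, so the groups overlapped by that pair alone. In Atp6v0d1 the log2 fold change was -0.21 (SE 0.10, adjusted p 0.207 by edgeR).

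Atp6v1a, the catalytic subunit, was at 43.2, 47.5, 80.4, 55.7 and 83.2 CPM in the controls and at 53.0, 39.1, 41.6 and 40.7 CPM in the diabetic libraries. Control 4 and control 6 stood above the other 3 controls, and diabetic 1 lay inside the control range. In Atp6v1a the log2 fold change was -0.50 (SE 0.23, adjusted p 0.219 by edgeR). With the isolation genes as a covariate the adjusted p was 0.0243, at a log2 fold change of -0.54, in a fit where 12.1% of all genes passed. Without controls 4 and 6 no pump subunit lay below a log2 fold change of -0.201. Over all alternatives the log2 fold change of Atp6v1a ran from -0.61 to -0.17. Its partner Atp6v1b2 was at 191, 213, 236, 194 and 245 CPM in the controls and at 206, 161, 172 and 166 CPM in the diabetic libraries, again with the 2 highest values in controls 4 and 6. Its log2 fold change was -0.29 (SE 0.13, adjusted p 0.186 by edgeR).

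Atp6v0c, the proteolipid that forms the proton-carrying ring, followed control 4 and control 6 most closely of the subunits shown. It was at 382, 388, 598, 383 and 784 CPM in the controls and at 399.9, 383, 502 and 476 CPM in the diabetic libraries. In Atp6v0c the log2 fold change of -0.20 (SE 0.24) turned to 0.0085 without control 6 and to 0.19 without both libraries. Without both, 4 of the 6 subunits were below 0 and 1 was lower at an unadjusted p below 0.05 by edgeR. The median of the 6 was then -0.11.

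The cysteine cathepsins, the main family of lysosomal proteases, had 8 tested members. Of these, 2 were lower at an unadjusted p below 0.05 and none was higher, and their median log2 fold change was -0.09 with TMM factors and 0.02 with library totals alone. Under library totals alone, 6 of the 8 were above 0.

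Ctsk, a collagen-degrading cathepsin best known from osteoclasts, showed the largest log2 fold change of all 44 members by size. It was at 13.9, 22.7, 18.2, 12.9 and 25.3 CPM in the controls and at 7.32, 8.69, 8.13 and 10.4 CPM in the diabetic libraries. The groups did not overlap, and the highest diabetic library, diabetic 5, stood below the lowest control, control 5. The control mean was 18.6 ± 5.42 CPM (SD, n = 5) and the diabetic mean 8.64 ± 1.31 CPM (SD, n = 4). In Ctsk the log2 fold change was -1.10 (SE 0.31, 95% interval -1.70 to -0.50), with an adjusted p of 0.0756 by edgeR. It was the 1 member below an adjusted p of 0.1, which 1.9% of all genes passed. Its counts were the lowest of the members, 51 to 262 per library.

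Ctsk passed an adjusted p of 0.05 in some alternatives. Its adjusted p was 0.046 without control 1 (0.646% of all genes passed), 0.0448 without the filter on low counts (0.236%), 0.00986 with the isolation covariate and 0.00124 with DESeq2. Over all alternatives the adjusted p ran from 0.00124 to 0.446 and the log2 fold change stayed below 0. In the authors' deposited table its log2 fold change was -0.97 with an adjusted p of 0.011, the 1 member below 0.05 there (2.1% of all genes in that table). Its reference transcripts span chr2:196655469-196666446 on Rnor_6.0, plus strand.

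Ctsl, an endopeptidase with broad protein substrates, was at 1761, 1868, 2121, 1646 and 2743 CPM in the controls and at 1415, 1662, 1680.1 and 1536 CPM in the diabetic libraries. Control 6 was the highest and control 4 the next, while diabetic 2 and diabetic 4 lay just above control 5. In Ctsl the log2 fold change was -0.37 (SE 0.16, adjusted p 0.19 by edgeR), and the adjusted p was 0.0412 with the isolation covariate. It was -0.23 without control 6, and -0.17 without control 4 and control 6 (adjusted p 0.422 by edgeR).

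Ctsb, which cuts inside proteins and also removes dipeptides from their ends, was at 8944, 10817, 8398, 8708 and 9021 CPM in the controls. In the diabetic libraries it was at 8297, 8125, 9902 and 7986 CPM. Control 3 and diabetic 4 stood high in their groups, and the groups overlapped. In Ctsb the log2 fold change was -0.10 (95% interval -0.29 to 0.09, adjusted p 0.568 by edgeR), and 0.012 with library totals alone.

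Ctss, a cathepsin of antigen-presenting cells that stays active at neutral pH, was at 14190.3, 13976, 13893, 13338 and 15683 CPM in the controls. It was at 11622, 13815, 14760.0 and 13472 CPM in the diabetic libraries, where diabetic 1 was the lowest of all and the other 3 fell within the control range. Its log2 fold change was -0.08 (95% interval -0.25 to 0.08, adjusted p 0.57 by edgeR), and 0.035 with library totals alone. Ctsh, an aminopeptidase, and Ctsf were the 2 cysteine cathepsins above 0 under TMM. Their log2 fold changes were 0.17 (95% interval -0.03 to 0.38) and 0.16 (95% interval -0.04 to 0.36).

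The other proteases were Ctsd, Tpp1, Lgmn and Ctsa, and all 4 had a log2 fold change below 0 with TMM factors, 3 of them with upper-quartile factors or library totals alone. Ctsd and Tpp1 were lower at an unadjusted p below 0.05, and in both the groups did not overlap.

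Ctsd, the main aspartic protease of lysosomes, was at 2758, 2723, 2691, 2635 and 2461 CPM in the controls. It was at 2255, 2207, 2432 and 2166 CPM in the diabetic libraries. The highest diabetic value, in diabetic 4, lay just below the lowest control value, in control 6. The control mean was 2654 ± 117 CPM (SD, n = 5) and the diabetic mean 2265 ± 117 CPM (SD, n = 4). In Ctsd the log2 fold change was -0.23 (SE 0.09, 95% interval -0.40 to -0.06, adjusted p 0.135 by edgeR), which is 14.6% lower on the linear scale. DESeq2 gave an adjusted p of 0.0452, and the range over all alternatives was 0.0452 to 0.776. Summed TPM from the assemblies, a transcript abundance normalized by length, gave a log2 fold change of 0.24 for Ctsd, the opposite sign. By position on the reference, Ctsd was at 366 and 274 TPM in controls 4 and 6 and at 724 to 750 TPM in the other controls. The CPM of those 2 controls showed no such gap, and the cause was not tested. Reference transcripts span chr1:215541542-215553451 on Rnor_6.0, minus strand.

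Tpp1, a serine protease that removes tripeptides, had the most even control values of the members, with a coefficient of variation of 2.71%. It was at 1018, 1042, 1085, 1014 and 1038 CPM in the controls and at 866, 841, 965 and 861 CPM in the diabetic libraries. In Tpp1 the log2 fold change was -0.24 (SE 0.09, 95% interval -0.41 to -0.06, adjusted p 0.142 by edgeR). With DESeq2 the adjusted p was 0.034, and over all alternatives it ran from 0.034 to 0.57. Its reference transcripts span chr1:170588035-170594168 on Rnor_6.0, minus strand. Lgmn, the asparagine-specific legumain, was at 3905 ± 374 CPM (SD, n = 5) and 3555 ± 222 CPM (SD, n = 4), with a 95% interval of the log2 fold change from -0.31 to 0.04.

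**Figure D2:**
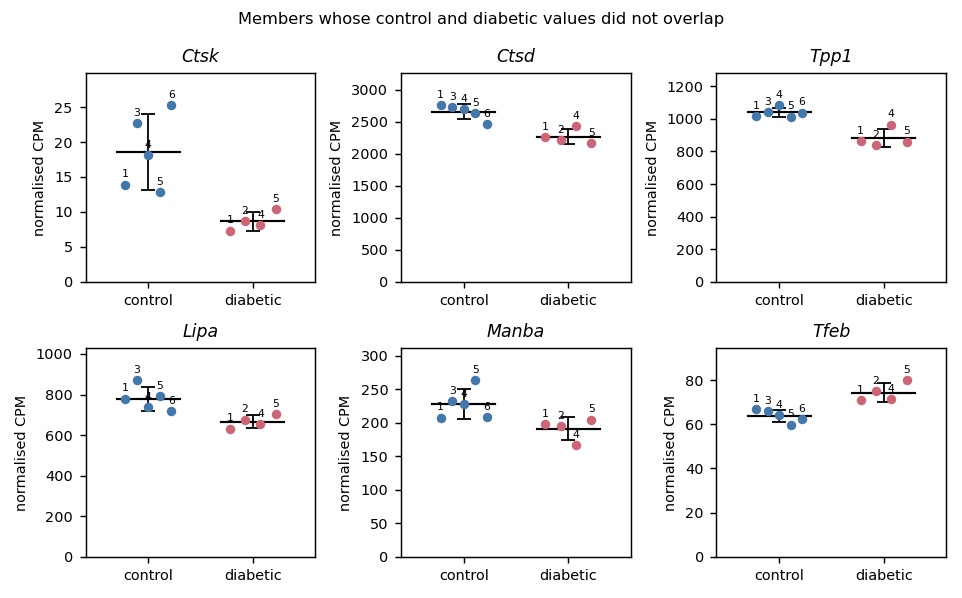
Normalised CPM of Ctsk, Ctsd, Tpp1, Lipa, Manba and Tfeb in each library (points, with the replicate number beside each), with the group mean (long line) and SD (bars) for 5 control and 4 diabetic libraries. In the first 5 every diabetic point lies below every control point, as for Ctsd at 2166 to 2432 against 2461 to 2758 CPM, and in Tfeb every diabetic point lies above.

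Cst3, the secreted cystatin that inhibits cysteine cathepsins, took 3.46% to 5.51% of all counts. It was at 40569.6, 34327, 39290.1, 38479 and 43986 CPM in the controls and at 32291, 39201, 54722 and 36162 CPM in the diabetic libraries. Diabetic 4 was the highest of all libraries and diabetic 1 the lowest, so the diabetic values enclosed the control values. In Cst3 the log2 fold change was 0.05 (SE 0.14, 95% interval -0.23 to 0.32, adjusted p 0.88 by edgeR), and it was -0.13 without diabetic 4. Over the summed cysteine cathepsins, the ratio of CPM was 1.30, 1.04, 1.31, 1.30 and 1.31 in the controls. It was 1.17, 1.32, 1.62 and 1.26 in the diabetic libraries, where diabetic 4 was again the highest.

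Of 9 glycosidases, which trim sugar chains from glycoproteins and glycolipids, 2 were lower at an unadjusted p below 0.05 and none was higher. Their median log2 fold change was -0.07 with TMM factors, 0.0054 with upper-quartile factors and 0.04 with library totals alone. Manba, a beta-mannosidase that acts late in glycan breakdown, was at 208, 232, 228, 264 and 208 CPM in the controls and at 198, 195, 167 and 205 CPM in the diabetic libraries. The groups did not overlap, but the highest diabetic library and the 2 lowest controls differed by a few CPM. In Manba the log2 fold change was -0.25 (SE 0.11, adjusted p 0.206 by edgeR), and its reference transcripts span chr2:240668195-240760261 on Rnor_6.0, plus strand.

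Hexa, the alpha subunit of the beta-hexosaminidase that degrades GM2 ganglioside, was at 688, 899, 658, 681 and 641 CPM in the controls and at 575, 593, 649 and 564 CPM in the diabetic libraries. Control 3 stood far above the other controls, and diabetic 4 overlapped control 6. In Hexa the log2 fold change was -0.26 (SE 0.12, adjusted p 0.227 by edgeR).

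Gla, the alpha-galactosidase that clears globotriaosylceramide, and the sialidase Neu1 were singled out after their values were seen, for the spread among their controls. Gla was at 47.4, 46.6, 119.9, 52.4 and 126 CPM in the controls and at 46.1, 55.9, 45.4 and 62.5 CPM in the diabetic libraries. Its coefficient of variation in the controls, 51.8%, was the highest of the members. Neu1 was at 50.6, 65.6, 111, 60.7 and 122 CPM in the controls and at 74.1, 67.8, 62.2 and 80.8 CPM in the diabetic libraries. In both genes controls 4 and 6 stood far above all other libraries of either group. The log2 fold change of Gla was -0.57 (SE 0.40, adjusted p 0.4 by edgeR), 0.10 without control 4 and control 6, and -0.60 with an adjusted p of 0.0142 with the isolation covariate. That of Neu1 was -0.20 (SE 0.27), and 0.27 without the 2 libraries.

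**Figure D3:**
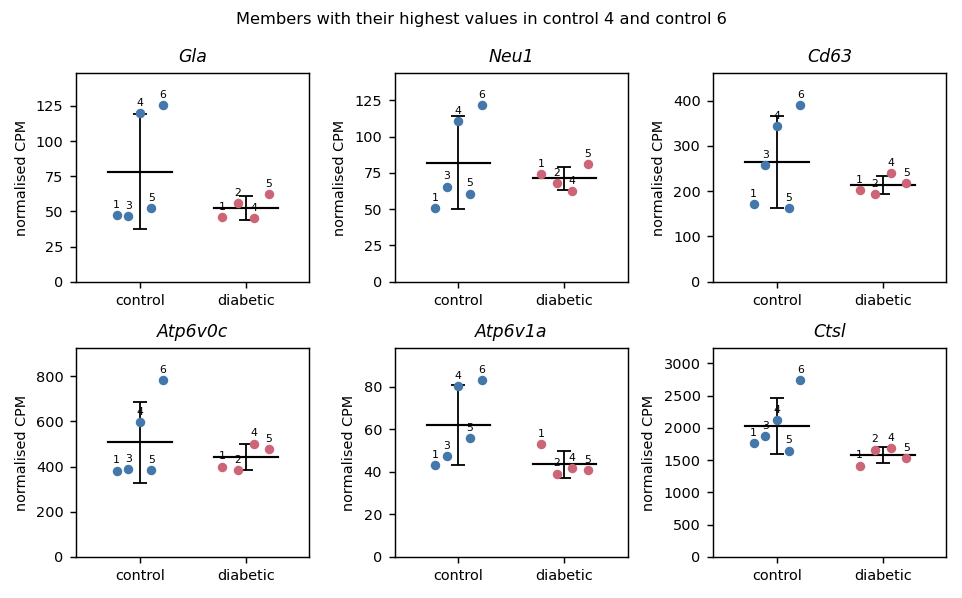
Normalised CPM of Gla, Neu1, Cd63, Atp6v0c, Atp6v1a and Ctsl in each library (points, with the replicate number beside each), with the group mean (long line) and SD (bars). Controls 4 and 6 are the 2 highest controls in all 6 panels, as for Gla at 119.9 and 126 CPM against 46.6 to 52.4 CPM in the other 3 controls.

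Of 8 members grouped under lipid breakdown and transfer, 2 were lower at an unadjusted p below 0.05 and none was higher. Their median log2 fold change was -0.0079 with TMM factors and 0.11 with library totals alone. Lipa, the acid lipase that frees cholesterol from its esters, was at 779, 871, 737, 791 and 719 CPM in the controls. It was at 631, 676, 652 and 705 CPM in the diabetic libraries, every one below every control. In Lipa the log2 fold change was -0.23 (SE 0.10, 95% interval -0.42 to -0.04, adjusted p 0.185 by edgeR), and its reference transcripts span chr1:252816527-252849904 on Rnor_6.0, minus strand.

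Ppt1, which removes palmitate from proteins, was at 577, 667, 564, 577 and 636 CPM in the controls and at 492, 499, 593 and 495 CPM in the diabetic libraries. Diabetic 4 alone lay inside the control range. In Ppt1 the log2 fold change was -0.22 (SE 0.10, adjusted p 0.233 by edgeR), and 0.014 on the summed TPM of the assemblies.

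Npc2, which hands cholesterol to Npc1 at the lysosomal membrane, was at 1395, 1484, 1641, 1503 and 1691 CPM in the controls and at 1392, 1491, 2146 and 1794 CPM in the diabetic libraries. Diabetic 4 was the highest and diabetic 1 the lowest of all. In Npc2 the log2 fold change was 0.14 (95% interval -0.11 to 0.39, adjusted p 0.517 by edgeR), and -1.07 on summed TPM. By position on the reference, Npc2 was at 267 and 202 TPM in diabetic 4 and 5, against 857 and 912 TPM in diabetic 1 and 2. In CPM diabetic 4 and 5 were instead the highest of their group, and the cause was not tested.

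Psap, the precursor of the saposins, and Grn, the progranulin gene, had intervals close around 0. Psap had a log2 fold change of 0.0015 (95% interval -0.16 to 0.16), with means of 10868 ± 679 CPM (SD, n = 5) and 10879 ± 1053 CPM (SD, n = 4). Grn had a log2 fold change of -0.02 (95% interval -0.19 to 0.15).

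None of the 7 membrane proteins was at an unadjusted p below 0.05, and 6 of the 7 had a log2 fold change below 0 with TMM factors against 4 of the 7 with upper-quartile factors or library totals alone. Lamp1, a major glycoprotein of the limiting membrane, was at 1330.2, 1622, 1409, 1453 and 1351 CPM in the controls and at 1142, 1252, 1389.9 and 1509 CPM in the diabetic libraries. Its relative Lamp2, which also serves chaperone-mediated autophagy, was at 1873, 2007, 2068, 1932 and 2089 CPM and at 1536, 1888, 1834 and 1927 CPM. In both genes the groups overlapped, with diabetic 1 the lowest library. The log2 fold changes were -0.12 (95% interval -0.32 to 0.09) and -0.15 (95% interval -0.33 to 0.03), with adjusted p of 0.523 and 0.339 by edgeR.

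Cd68, the macrophage scavenger-like protein used as a histological marker of phagocytic cells, had the largest positive log2 fold change of the members. It was at 129, 204, 130.3, 141 and 124 CPM in the controls and at 202, 154, 212 and 168 CPM in the diabetic libraries. All 4 diabetic libraries lay above controls 1, 4, 5 and 6, and control 3 lay above 3 of them. In Cd68 the log2 fold change was 0.34 (SE 0.17, 95% interval -0.0042 to 0.67), with an unadjusted p of 0.0529 and an adjusted p of 0.268 in edgeR's fit. With the isolation covariate the adjusted p was 0.0361, and without control 4 and control 6 the log2 fold change was 0.21. In the authors' deposited table the log2 fold change was 0.44 with an adjusted p of 0.28.

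Laptm5, a lysosomal membrane protein of haematopoietic cells, was at 3821, 3517, 3226, 3781 and 3493 CPM in the controls and at 3071, 3466, 3887 and 3483 CPM in the diabetic libraries. Diabetic 1 was the lowest and diabetic 4 the highest of all 9. In Laptm5 the log2 fold change was -0.04 (95% interval -0.21 to 0.13, adjusted p 0.834 by edgeR), and it was 0.018 without diabetic 1 and 0.07 with library totals alone.

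Cd63, a tetraspanin of late endosomes singled out after its values were seen, was at 171, 258, 343, 163 and 390.0 CPM in the controls and at 202, 193, 239 and 218 CPM in the diabetic libraries. Its 2 highest libraries were control 6 and control 4, and the diabetic values lay within the range of the other 3 controls. In Cd63 the log2 fold change was -0.31 (SE 0.28), and 0.10 without those 2 controls.

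Controls 4 and 6 were the 2 highest controls for 11 members (25.0%) and the 2 lowest for another 11 (25.0%), shares near the 21.3% and 20.3% of all tested genes. The 11 highest were Ctsl, Gla, Neu1, Npc2, Lamp2, Cd63, Scarb2, Atp6v0b, Atp6v0c, Atp6v1a and Atp6v1b2. Diabetic 4 was the highest diabetic library for 25 members (56.8%, all genes 28.8%), and control 3 the highest control for 17 (38.6%, all genes 20.7%). Diabetic 1 was the lowest diabetic library for 16 members (36.4%, all genes 21.7%).

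Taken by library, the median log2 ratio of the members to their control mean was -0.16, -0.11, -0.03 and -0.12 in diabetic 1, 2, 4 and 5. In the controls it lay between -0.05 and 0.05. Diabetic 4, the library with the fewest counts, thus lay within the control range on this measure, and the other 3 diabetic libraries lay below it. The members together took 10.1% to 11.7% of all counts in control libraries and 10.4% to 13.3% in diabetic libraries, and without Cst3 they took 6.4% to 7.81% and 6.97% to 7.76%.

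**Figure D4:**
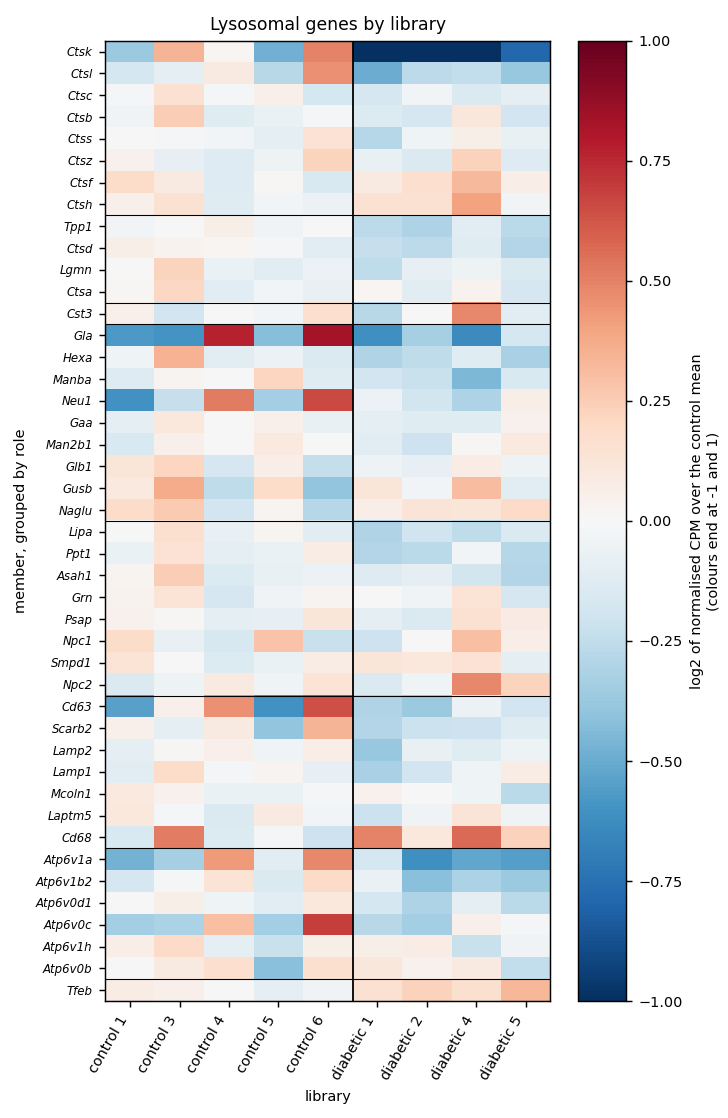
Log2 of normalised CPM over the control mean for each of the 44 members (rows, grouped by role with lines between the roles) in each of the 9 libraries (columns, controls left of the line), with colours ending at -1 and 1. Ctsk is blue in all 4 diabetic libraries, Gla, Neu1, Cd63 and Atp6v0c are red in controls 4 and 6, and Tfeb is pale red across the diabetic libraries.

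Lengths were taken into account only through the assemblies, where 38 members had TPM values by their position on the reference. On this scale Ctsb was at 2597 ± 403 TPM (SD, n = 5) in control and 2470 ± 135 TPM (SD, n = 4) in diabetic libraries, above Grn at 1115 ± 149 and 1093 ± 169.6 TPM. Ctsh was at 933 ± 68.8 and 1074 ± 119 TPM. Ctsk was near the low end at 11.2 ± 3.61 and 6.81 ± 3.68 TPM. Levels of Ctsb and Grn thus differed by more than the spread between libraries.

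Beyond the members, 113 further lysosomal genes were listed by function, of which 96 were tested. None passed an adjusted p of 0.05 in the edgeR test, and 6 of the 96 did with DESeq2, where 4.95% of all genes passed. In the edgeR test 14 were lower and 6 were higher at an unadjusted p below 0.05, beside 10.0% and 8.94% of all genes, and the median log2 fold change was -0.03. With library totals alone, 8 were lower and 17 were higher, beside 3.64% and 13.8% of all genes. Named on the lower side are Arsb, a sulfatase of glycosaminoglycans, Cd164, a sialomucin of endosomes and lysosomes, and Vps35, a retromer subunit that returns sorting receptors to the Golgi.

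Arsb was at 303, 353, 288, 312 and 259 CPM in the controls and at 194, 192, 199 and 249 CPM in the diabetic libraries. The groups did not overlap, with diabetic 5 nearest to the controls. In Arsb the log2 fold change was -0.54 (SE 0.15, adjusted p 0.0877 by edgeR). Cd164 had a log2 fold change of -0.47 (adjusted p 0.0895) and Vps35 of -0.46 (0.101) in the same edgeR fit, and in both every diabetic library lay below every control. With DESeq2 the adjusted p was 0.00291 for Arsb, 0.00559 for Cd164 and 0.0221 for Vps35.

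On the higher side were Gnptg, a subunit of the enzyme that starts the mannose 6-phosphate tag, the sorting adaptor Gga1, and Lamtor4 and Lamtor2, parts of the complex that anchors mTORC1 signalling to lysosomes. Gnptg was at 23.0, 22.7, 22.2, 26.9 and 20.3 CPM in the controls and at 28.7, 31.1, 29.3 and 32.5 CPM in the diabetic libraries, without overlap. Its log2 fold change was 0.40 (adjusted p 0.123), that of Lamtor4 0.40 (0.125), of Gga1 0.26 (0.184) and of Lamtor2 0.52 (0.19), all by edgeR.

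The pump subunits outside the members gave 3 lower and 0 higher of 13 tested at an unadjusted p below 0.05, with a median log2 fold change of -0.15. The soluble enzymes outside the members gave 3 lower and 1 higher of 28, with a median of 0.06. Sorting factors gave 2 lower and 3 higher of 13, and regulators of lysosomal genes and of nutrient signalling gave 3 lower and 2 higher of 15.

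In the authors' deposited table the 44 members had a median log2 fold change of 0.02 and all 12069 genes a median of 0.12. Both medians were the same to these digits with library totals alone in the edgeR fit. So were single genes, such as Ctsk at -0.969 and Ctsb at 0.012. That table rests on the same libraries and is not an independent check. At an unadjusted p below 0.05 it lists 1 member as lower, Ctsk, and 2 as higher, Cd68 and Tfeb, where 15.2% of all its genes passed in either direction. The 24 members outside the naming rule had log2 fold changes between -0.57 (Gla) and 0.17 (Ctsh) in the edgeR fit, with adjusted p between 0.316 and 0.995.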

How the data were processed

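The values came from the deposited table of raw counts per gene symbol, 1 column per library, made by the authors. Per the submitters' processing notes the study used bcl2fastq 2.18.0.12, TopHat2 2.0.14, StringTie 1.2.4 and edgeR with the build Rnor_6.0, while for the counting step neither program nor strand handling is given in the sources used here. Without the strand setting, overlapping and antisense genes cannot be told apart, and reads of near-identical copies may be split. The authors' deposited comparison table lists for each gene the log2 fold change and the raw and adjusted p-value. The 9 deposited transcript assemblies hold TPM, which the authors' StringTie run computed per transcript and library, per the file headers. Only 8 members carried a reference name in all 9 libraries, so TPM served as an alternative for those 8, and by position on the reference for level per length in 38. Reference spans may be shorter than the gene.

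Low counts were removed by filterByExpr at a minimum count of 10 and a minimum total of 15, leaving 11748 of 17822 genes with any count. Scaling was by TMM (factors 0.839 to 1.07), and the test was the robust quasi-likelihood test of edgeR 4.0.16 in R 4.3.3 without covariates, with Benjamini-Hochberg adjustment over all tested genes and a threshold of 0.05. CPM refer to the counts in tested genes times the TMM factor. The SE is the size of the log2 fold change over the normal quantile of its p, and intervals are 95%. The common coefficient of variation was 0.251, and no library pair was alike within sampling noise (chi-square per degree of freedom at least 11.7). Totals of 6228756 to 11332823 counts gave every member at least 51 counts per library. Counts were taken as reads, since no molecular identifiers are named. The procedure was tested on simulated data.

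Named genes were members with an unadjusted p below 0.05, a fixed list of well-known members, and up to 4 other lysosomal genes in each direction with the smallest p. Among the last, 1 gene is not reported here. Gla, Cd63, Atp6v0c and Neu1 were added after their values were seen, and so were intervals or values of Ctsh, Ctsf, Lgmn, Psap and Grn. The members, the lists and the alternatives were chosen with earlier results of these data known. Alternatives were RLE, upper-quartile and no factors, DESeq2 1.42.0, limma-voom (limma 3.58.1), other filters, leaving out libraries, a replicate block, the isolation genes as a covariate, and limma on log2(TPM + 1) of genes with a mean TPM of at least 1. Promoter letters came from the RefSeq table of the build GRCr8.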

Additional observations from a re-analysis of the deposited data

Results flagged for a closer look

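A value was set apart where its gap to the nearest library exceeded Dixon's 95% critical value for its group of 4 or 5 libraries. The 66 groups tested were those of named genes and of summed shares of counts of the members and of some roles. Of these, 6 held such a value, all of them for single genes, and chance alone marks about 1 in 20 groups. Control 3 stood high in 3 members. It was at 10817 CPM for Ctsb, where the other controls were at 8398 to 9021 CPM. It was at 899 CPM for Hexa against 641 to 688 CPM, and at 204 CPM for Cd68 against 124 to 141 CPM. Diabetic 4 stood high for Ctsb at 9902 CPM, with the other diabetic libraries at 7986 to 8297 CPM, and for Ppt1 at 593 CPM against 492 to 499 CPM. Outside the members, diabetic 5 stood high for Arsb at 249 CPM against 192 to 199 CPM.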

How the results depend on the processing

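Across the alternatives the sign of most named genes was stable, while counts of calls moved widely. Of 616 results for 32 named genes, 576 kept their sign and side of the adjusted threshold, 22 passed the threshold only in the alternative and 18 turned sign. The 12 members at an unadjusted p below 0.05 were picked by that p in the same libraries that the alternatives used. Agreement of their signs was therefore largely built in, and the share for all genes picked likewise was not counted. For these 12, 229 of 231 results kept their sign, the exceptions being Ctsd (0.24) and Ppt1 (0.014) on summed TPM. The causes were not tested except where fewer genes or samples entered.

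Genes past an adjusted p of 0.05 numbered 8 in the edgeR test, 31 with upper-quartile factors, 29 with no factors, 581 with DESeq2, 4 with limma-voom, 42 without a filter, 5 with the CPM filter, 1417 with the isolation covariate and 5 of the genes with TPM. They numbered 0 without controls 4 and 6 (1775 at an unadjusted p below 0.05 by edgeR) and 0 with the replicate block (1129), and 0 to 75 when 1 library was left out. The 0 counts there came without control 4 (1686 at an unadjusted p), diabetic 1 (1793) or diabetic 4 (1528), and the 75 without control 1. Members past it numbered 3 with DESeq2 (Ctsd, Ctsk, Tpp1), 1 without a filter (Ctsk), 5 with the isolation covariate (Atp6v1a, Cd68, Ctsk, Ctsl, Gla) and 0 to 1 with 1 library left out. The other lysosomal genes gave 6 with DESeq2, 17 with the isolation covariate and 0 to 1 with 1 library left out.

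Members lower at an unadjusted p below 0.05 numbered 3 with upper-quartile factors, 2 with no factors, 1 with TPM and 6 to 11 with 1 library left out. Members higher numbered 3, 4, 0 and 0 to 2 in the same order, 2 without a filter, 0 without controls 4 and 6, and 4 with the isolation covariate. Members with all diabetic below all control libraries numbered 1 with upper-quartile factors, 1 with no factors, 9 without controls 4 and 6, and 5 to 9 with 1 library left out. Fewer libraries make such separation easier for any gene. Their median log2 fold change was -0.0125 with upper-quartile factors, 0.0234 with no factors, -0.0237 with TPM and -0.133 to -0.0602 with 1 library left out. Other lysosomal genes lower at an unadjusted p below 0.05 numbered 9 with upper-quartile factors, 8 with no factors, 9 without controls 4 and 6, 1 with TPM and 7 to 15 with 1 library left out. Those higher numbered 16, 17, 0 with TPM, 21 with the isolation covariate and 5 to 10 with 1 library left out. With the isolation covariate 3442 of all 11748 genes reached that unadjusted p by edgeR, in either direction. The fit without it gave 2226, so calls rose over all genes as well.

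Numbers 1, 4 and 5 occur in both groups, and the labels do not say whether they pair libraries. The deviations of same-numbered libraries had correlations of 0.201, -0.114 and 0.0156. Those of differently numbered libraries ran from -0.347 to 0.303. With so few same-numbered pairs these values cannot decide whether the numbers pair the libraries. With the replicate block, 1 member and 4 other lysosomal genes were lower at an unadjusted p below 0.05, and the members' median was -0.0464. Control 3, control 6 and diabetic 2 have no partner of the same number, so the block takes them out of the group comparison. The block fit thus compared only the libraries numbered 1, 4 and 5, and an effect of pairing cannot be told apart from this loss. Log2 fold changes that turned sign under the block were those of Ctsb (0.0014), Cd63 (0.0497), Atp6v0c (0.043) and Neu1 (0.051). With no factors, those of Ctsb (0.012), Ctss (0.035) and Laptm5 (0.071) turned, and so did Laptm5 with upper-quartile factors (0.038). Without controls 4 and 6, Gla (0.099), Cd63 (0.10), Atp6v0c (0.19) and Neu1 (0.27) turned. With 1 library left out, Atp6v0c ran from -0.291 to 0.00853, Cst3 from -0.133 to 0.141 and Laptm5 from -0.0958 to 0.0178. Npc2 was -1.07 on summed TPM. Ctsk rested on 51 to 262 counts per library, and the part of depth in the calls was not tested.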

Other observations

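Gpnmb, a lysosomal membrane glycoprotein of lipid-laden and activated macrophages that is among the other lysosomal genes, differed more between controls than between groups. It was at 101, 1137, 297, 77.9 and 78.3 CPM in controls 1, 3, 4, 5 and 6 and at 205, 123, 105 and 133 CPM in diabetic libraries 1, 2, 4 and 5. Control 3 stood alone, and it was also the control with the highest Ctsb, Hexa and Cd68. The log2 fold change of Gpnmb was -1.26 (SE 1.02), with an adjusted p of 0.479 in the edgeR fit. This gene was singled out after its values were seen.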
